A study of Mus musculus with 22 samples.

Results

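miR-199a and miR-214 are small noncoding RNAs known as markers of mesenchymal cells, the fibroblasts and smooth muscle cells that lie under an epithelium. Of the 566 mouse miRNA probes on a NanoString panel, 3 belong to them, mmu-miR-199a-3p, mmu-miR-199a-5p and mmu-miR-214, and these were picked by name. The names of 4 other panel miRNAs (miR-2140, miR-2141, miR-2145 and miR-2146) begin with the same digits as miR-214 but are unrelated, and they were left out. The count of fluorescent barcodes for each of the 3 probes was followed through 22 mouse samples from a study of cancer that arises in the fallopian tube (FT). None of the 3 miRNAs passed the threshold in any comparison. miR-199a-3p was spread far more widely among metastatic tumors than among control tubes, with an SD of log2 values of 2.31 against 0.50. Spread was also wider in tumors for miRNAs in general, whose median SD was 1.10 against 0.36. Both arms of miR-199a were above background in all tissue apart from the 5p arm in M4, and miR-214 was at background in 20 of 22 samples.

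The 5 groups were uninduced control FT (CT, n = 5), doxycycline-induced FT (FT, n = 5), metastatic tumors (M, n = 5), plasma of control mice (CS, n = 3) and plasma of doxycycline-induced mice (TS, n = 4). All mice, controls included, carried conditional alleles of either Brca1 or Brca2 beside other conditional alleles, which doxycycline recombines through a Pax8-Cre system, so that deletion is aimed at Pax8-expressing cells, the tubal epithelium among them, and not at the mesenchyme. CT1 and CT3 were Brca1 fl/fl, CT2 was Brca1 fl/+, CT4 was Brca2 fl/fl and CT5 was Brca2 fl/+. FT1, FT3 and FT5 were Brca2 -/+, FT2 was Brca1 -/- and FT4 was Brca2 -/-. M1 and M3 were Brca2 -/-, M2 and M6 were Brca1 -/+, and M4 was Brca2 -/+. M1 to M4 came from the peritoneum and M6 from the ovary. Mice CT2 to CT4 also gave CS2 to CS4, and mice FT2 to FT5 gave TS1 to TS4. The source of TS is given as serum in one label and as plasma in another, and plasma is used here. Some M and FT came from the same mice, which are not named, so the test of M against FT treats as separate samples some that are not. Ages and the time from induction to collection are not given in the sources used here. A sample is a piece of whole tissue, so fewer cells of a type and less miRNA per cell cannot be told apart.

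A miRNA gene is transcribed into a hairpin, and either of its arms, 5p or 3p, can be cut out as a mature miRNA. Bases 2 to 8 of the mature miRNA, the seed, pair with target mRNAs, whose translation and stability then fall. miR-199a and miR-214 are transcribed together in mesenchyme as part of the long noncoding RNA Dnm3os, under control of the mesenchymal factor Twist1, and are known from developing skeleton, activated fibroblasts and fibrosis.

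The mature sequences are shown because they set what each probe can see, with the seed in capitals (RefSeq, assembly GRCm38.p6).
mmu-miR-199a-5p: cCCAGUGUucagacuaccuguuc
mmu-miR-199a-3p: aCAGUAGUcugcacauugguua
mmu-miR-214-3p: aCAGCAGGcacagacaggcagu
The 5p arm is 23 bases long and both others are 22. The panel's older name miR-214 was taken to mean the 3p arm. The seeds of miR-199a-3p and miR-214-3p had the same base at 5 of 7 positions, while the seed of the 5p arm matched that of miR-214-3p at 2. Mature miR-199b-3p, from a separate gene, was identical to miR-199a-3p over its whole length, so the 3p probe cannot tell the products of these genes apart. miR-199b was not analysed here.

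miR-199a has 2 genes with identical mature arms. Mir199a-2 lies on the plus strand of chromosome 1, with its 5p arm at chr1:162217844-162217866 and its 3p arm at chr1:162217883-162217904. Mir214 follows on the same strand, its 3p arm at chr1:162223438-162223459, and 5444 bases separate the 2 annotated hairpins. Both hairpins lie within the noncoding RNA Dnm3os (chr1:162217623-162225550, 7928 bases), which itself lies within the span of the protein-coding gene Dnm3. Mir199a-1 lies within Dnm2 on the minus strand of chromosome 9, with its 3p arm at chr9:21496498-21496519 and its 5p arm at chr9:21496537-21496559. Mir199b lies within Dnm1 on chromosome 2. Counts of the 3p probe can thus come from 3 genes.

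The miRNA probes of a tissue sample summed to 70164 counts at least and 598321 at most, and those of a plasma sample to 18350 (CS3) and 269005. Background was taken, in each sample, as the mean plus 2 SD of its 8 negative control probes, which came to between 18.3 and 67.7 counts in tissue. A normalized count is the count over the geometric mean of the sample's own top miRNAs by abundance, 100 for tissue and 30 for plasma, multiplied by the mean of these geometric means over all tissue samples (585.1) or all plasma samples (1191), so levels in tissue and plasma are on separate scales.

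miR-199a-3p was above background in 22 of 22 samples, with counts as deposited from 120 (M4) to 13998 (M2) for tissue and from 32 (CS3) to 396 (TS4) for plasma. miR-199a-5p was above background in 14 of 15 tissue samples. The exception was M4, with 39 counts against a background of 44.1. In plasma it was above background in 1 of 3 CS (CS4, with 92 counts) and in 3 of 4 TS, whose counts lay between 25 and 56.

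**Figure D1:**
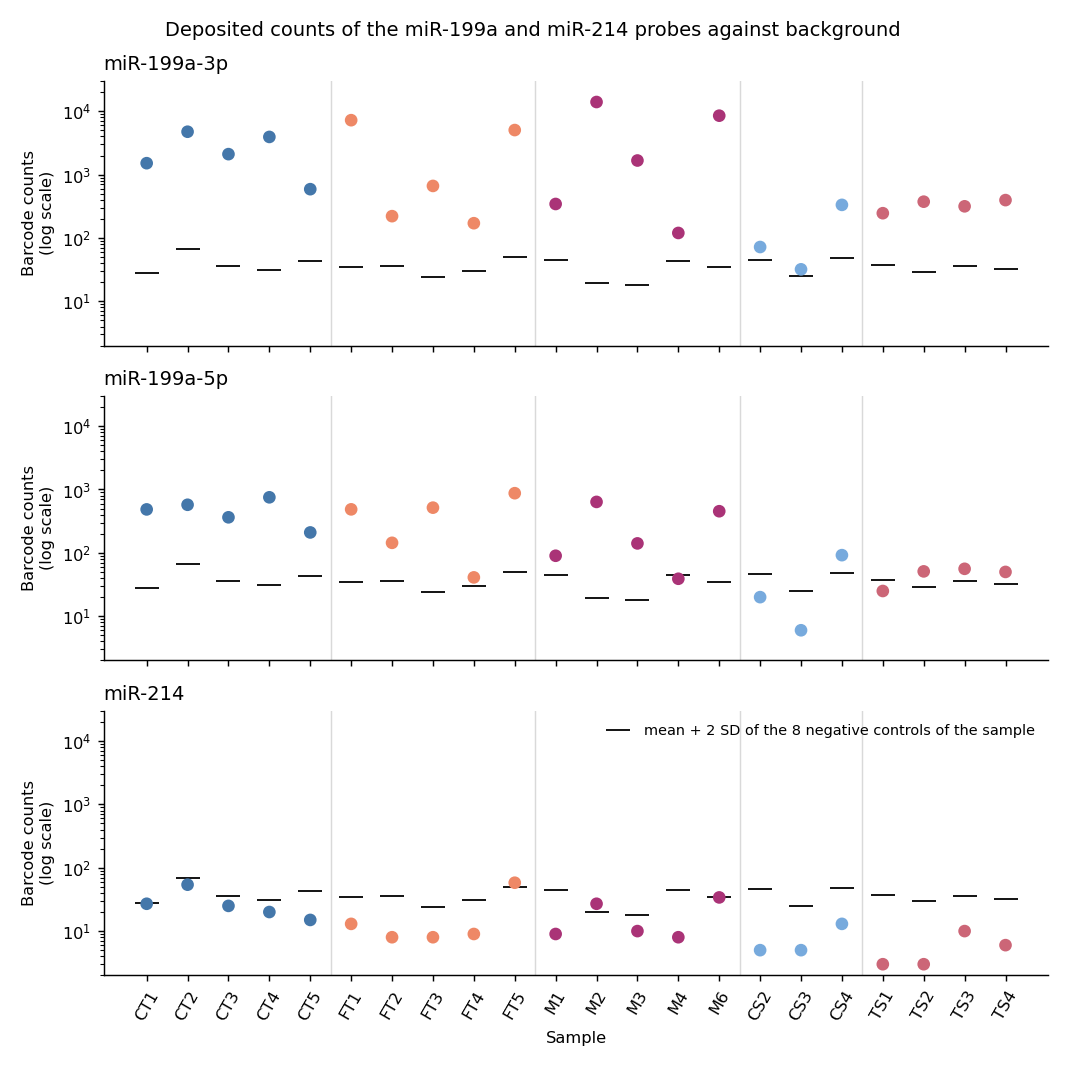
Barcode counts as deposited (log scale) of the 3 probes in each of the 22 samples, with a black dash at the mean plus 2 SD of the 8 negative controls of that sample. The miR-199a-3p points lie above the dash in all samples, the miR-199a-5p points in 14 of 15 tissue samples, and the miR-214 points in FT5 and M2 only.

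Counts of miR-214 ran from 8 to 58 across tissue and from 3 to 13 across plasma. In CT the counts were 27, 54, 25, 20 and 15 in CT1 to CT5, and 0 of 5 passed background. In FT they were 13, 8, 8, 9 and 58 in FT1 to FT5, and FT5 passed. In M they were 9, 27, 10, 8 and 34 in M1, M2, M3, M4 and M6, and M2 passed, with a background of 19.7 against 34.4 in M6. Those 2 samples, FT5 and M2, were the only ones of 22 above background, so differences in miR-214 between groups were not detectable at this depth. miR-761, which has the seed of miR-214-3p and its own probe, gave between 4 and 47 counts and was above background in 0 of 22 samples.

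The level of miR-199a-3p varied least in CT among the tissue groups. Its normalized counts were 1757, 3260, 2309, 3071 and 1453 in CT1 to CT5, a mean of 2370 ± 791 (SD, n = 5). In FT they were 2681, 427, 1364, 332 and 2743 in FT1 to FT5, a mean of 1510 ± 1169 (SD, n = 5). In M they were 700, 12317, 3891, 249 and 5732 in M1, M2, M3, M4 and M6, a mean of 4578 ± 4886 (SD, n = 5). FT1 and FT5 lay within the range of CT, while FT2, FT3 and FT4 lay below every CT. Of the M samples, M2, M3 and M6 lay above every CT and M1 and M4 below every CT, with a 49.4-fold span from M4 to M2. M2 and M6, the highest, were both Brca1 -/+, a state no other FT or M sample had, and this was seen in the values and not tested.

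On the log2 scale the SD of miR-199a-3p was 0.50 in CT, 1.44 in FT and 2.31 in M. Among the 127 miRNAs that averaged 50 counts or more in M, it ranked 13 from the widest, where the median SD was 1.10. In CT it ranked 35 of 128 (median SD 0.36) and in FT 50 of 142 (median SD 1.24). The ordering of the groups depended on the mean that was taken. By the mean of normalized counts M was highest, then CT, then FT, and by the mean of log2 values CT was at 11.14, M at 11.08 and FT at 10.07. No neighbors in either order differed beyond their spread.

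miR-199a-5p varied less than miR-199a-3p in CT and M and about as much in FT, with log2 SDs of 0.27, 1.05 and 1.41. Its normalized counts were 562, 394, 399, 588 and 518 in CT1 to CT5, a mean of 492 ± 90.9 (SD, n = 5). In FT they were 180, 278, 1064, 80 and 475 in FT1 to FT5, a mean of 415 ± 391 (SD, n = 5), and in M they were 183, 561, 329, 81 and 306 in M1, M2, M3, M4 and M6, a mean of 292 ± 180 (SD, n = 5). FT1, FT2 and FT4 lay below every CT and FT3 above every CT. M2 lay within the CT range and the other 4 M lay below every CT. Its log2 SD in M ranked 68 of 127, close to the median there.

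**Figure D2:**
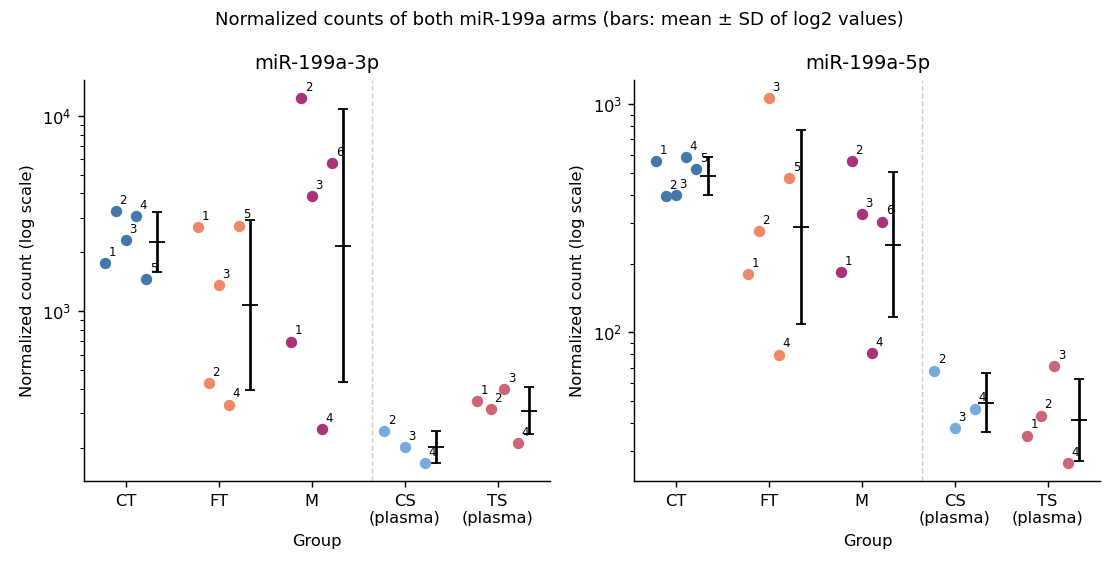
Normalized counts (log scale) of miR-199a-3p (left) and miR-199a-5p (right) in each sample, numbered as in the study, with bars at the mean ± SD of the log2 values of each group. For miR-199a-3p the 5 M samples span 49.4-fold and surround the CT samples, and for miR-199a-5p 4 of 5 M lie below every CT. Plasma is scaled apart from tissue.

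The comparison of FT with CT asks what changes in the tube once the alleles are inactivated. 0 of 3 miRNAs passed the threshold of an adjusted p of 0.05 (edgeR, quasi-likelihood test), beside 1 of 566 over all miRNAs (0.177%), and 0 of 3 had an unadjusted p under 0.05 by edgeR, DESeq2, limma or the methods' t-test. The log2 fold change of miR-199a-3p was −0.65 (SE 0.634, 95% interval −1.96 to 0.66, adjusted p = 0.738). That of miR-199a-5p was −0.25 (SE 0.594, 95% interval −1.47 to 0.98, adjusted p = 0.867), and that of miR-214, at background, was −0.77 (adjusted p = 0.634). Both intervals include 0, and the sign turned in 1 of 24 alternative settings for miR-199a-3p and in 2 of 24 for miR-199a-5p. A two-sided exact permutation test of mean log2 normalized counts gave a difference of −1.07 for miR-199a-3p (p = 0.175) and of −0.75 for miR-199a-5p (p = 0.302), where 0.00794 is the smallest p that 5 samples against 5 allow.

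The comparison of M with CT asks what distinguishes tumors outside the tube from the normal tube. 0 of 3 miRNAs passed the threshold, beside 95 of 566 over all miRNAs (16.8%), 49 higher (8.66%) and 46 lower (8.13%). Scaling moved this split, to 58 and 24 with a common set of most abundant miRNAs, 70 and 10 with miR-425 and 39 and 9 with the positive ligation controls. Of the 3 miRNAs, 0 had an unadjusted p under 0.05 by any of the same 4 tools. In 0 of 3 were the groups free of overlap, beside 15.2% of all miRNAs. The log2 fold change of miR-199a-3p was 0.95 (SE 0.742, 95% interval −0.62 to 2.52, adjusted p = 0.381), and that of miR-199a-5p, in the other direction, was −0.75 (SE 0.491, 95% interval −1.79 to 0.29, adjusted p = 0.294). miR-214 was at −0.47 (adjusted p = 0.355). Without M2 the value of miR-199a-3p was 0.16. The sign held in 24 of 24 alternative settings for miR-199a-5p and in 21 of 24 for miR-199a-3p, whose difference in mean log2 normalized counts was −0.06 (exact permutation p = 0.960).

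For miR-199a-5p, the difference of M from CT in mean log2 normalized counts was −1.003, with an exact permutation p of 0.0476 before any adjustment over the 12 such tests of single miRNAs. It was lower than the CT mean in 4 of 5 M samples. Without M1, M3, M4, M6, CT1, CT4 or CT5, each left out in turn, this p lay between 0.0794 and 0.0952. It was lowest, at 0.0159, without M2, when every M left lay below every CT. After adjustment over all 566 miRNAs, edgeR did not call it.

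Between M and FT, 0 of 3 miRNAs passed the threshold, beside 11 of 566 (1.94%), and again 0 of 3 had an unadjusted p under 0.05 by any of the 4 tools. The log2 fold change of miR-199a-3p was 1.60 (SE 0.951, 95% interval −0.35 to 3.55, adjusted p = 0.781), and 0.81 without M2. M2, M3 and M6 lay above every FT, M4 lay below every FT and M1 within their range (exact permutation p = 0.413). The log2 fold change of miR-199a-5p was −0.51 (SE 0.785, 95% interval −2.12 to 1.10, adjusted p = 0.997), and its sign turned in 2 of 24 alternative settings. M and CT, and M and FT, share the M samples, so these comparisons are not independent.

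**Figure D3:**
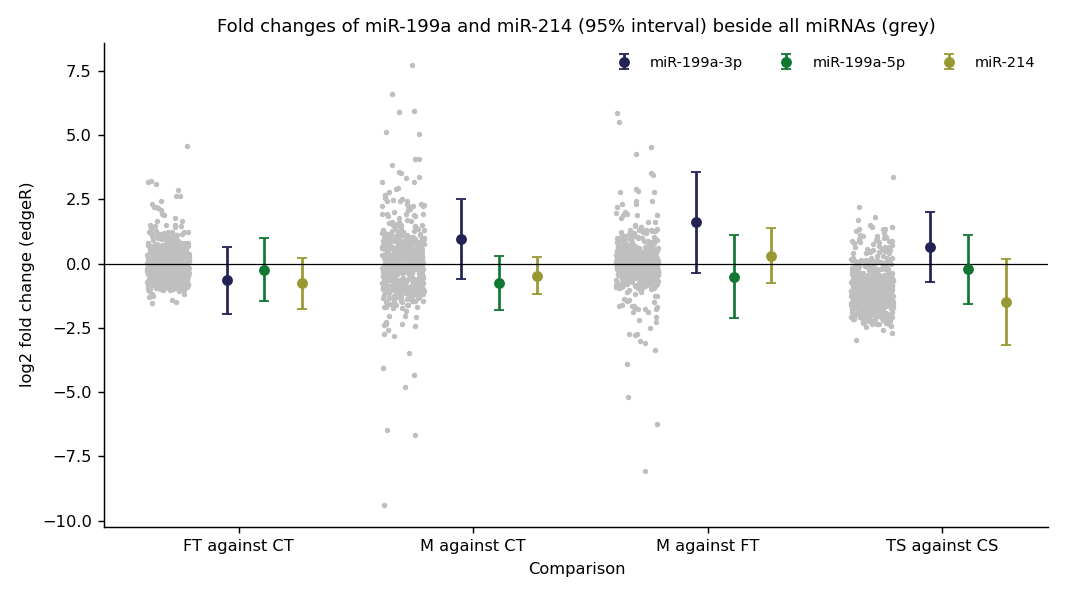
edgeR log2 fold changes of the 3 miRNAs with 95% intervals in the 4 comparisons, beside a grey point for each of the 566 miRNAs. All 12 intervals include 0, and the grey points of TS against CS are centered below 0.

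In plasma the question was whether the miRNAs differ between doxycycline-induced and control mice. Normalized counts of miR-199a-3p were 244, 202 and 167 in CS2 to CS4 and 346, 316, 400 and 211 in TS1 to TS4, means of 205 ± 38.7 (SD, n = 3) and 318 ± 79.4 (SD, n = 4). TS1, TS2 and TS3 lay above every CS and TS4 between them. Those of miR-199a-5p were 67.9, 37.9 and 46.2 in CS and 35.2, 43.1, 70.9 and 26.7 in TS, and the groups overlapped.

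0 of 3 miRNAs passed the threshold in plasma, and neither did any of the 566 (0.0%), of which 131 had an unadjusted p under 0.05 by edgeR. DESeq2, limma and the methods' t-test also called 0 of 566, with 136, 119 and 63 at an unadjusted p under 0.05. Of the 3 miRNAs, miR-214, at background, had such a p by limma, and 0 did by the others. The log2 fold change of miR-199a-3p was 0.64 (SE 0.671, 95% interval −0.73 to 2.01, adjusted p = 0.485), and that of miR-199a-5p was −0.22 (SE 0.654, 95% interval −1.55 to 1.12, adjusted p = 0.823), with a sign that turned in 8 of 21 alternative settings. The median over all 566 miRNAs, most of them at low counts in plasma, was −1.10 on this scaling, and it was −0.05 with TMM, 0.38 with ligation control scaling and −0.21 among miRNAs with a mean count of 20 or more, so no position relative to it is read here. An exact permutation test gave p = 0.114 for miR-199a-3p, where 4 samples against 3 cannot go below 0.0571. miR-214 was at −1.50 (adjusted p = 0.242) on counts of 3 to 13.

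Plasma and tissue of the same mouse did not show the same order. CT2, CT3 and CT4 had 3260, 2309 and 3071 normalized counts of miR-199a-3p and their plasma 244, 202 and 167. FT2, FT3, FT4 and FT5 had 427, 1364, 332 and 2743, and their plasma 346, 316, 400 and 211. FT5, the highest of these tubes, had the lowest plasma level and FT4, the lowest tube, the highest plasma level. The difference of the plasma change from the FT change was 1.29 for miR-199a-3p (log2, SE 0.940, adjusted p = 0.439), 0.03 for miR-199a-5p and −0.69 for miR-214. edgeR called 0 of 566 miRNAs for this difference, with 79 at an unadjusted p under 0.05, and the shared mice were not modelled.

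The ratio of the arms within a sample does not depend on the scaling, although its size depends on both probes. The 3p count also takes in any miR-199b-3p, so the ratio need not be that of the miR-199a arms alone. In CT there were 3.12, 8.28, 5.78, 5.23 and 2.80 counts of miR-199a-3p for each of miR-199a-5p in CT1 to CT5. In FT the ratios were 14.9, 1.53, 1.28, 4.17 and 5.78 in FT1 to FT5, and in M they were 3.82, 21.97, 11.8, 3.08 and 18.8 in M1, M2, M3, M4 and M6. M2, M3 and M6 had a higher ratio than every CT, and these were the M samples with the highest miR-199a-3p, which is its numerator. M1 and M4 lay within the CT range. The mean log2 ratio was 0.94 higher in M than in CT (exact permutation p = 0.183, 0.476 adjusted over 12 ratio tests) and 1.27 higher in M than in FT (p = 0.198, 0.476 adjusted, exact permutation test), and differed by −0.33 between FT and CT (exact permutation p = 0.659).

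In plasma the ratios were 3.60, 5.33 and 3.62 in CS2 to CS4 and 9.84, 7.33, 5.64 and 7.92 in TS1 to TS4. The groups did not overlap, and the mean log2 ratio was 0.87 higher in TS (exact permutation p = 0.0571, the smallest that 4 samples against 3 can give, 0.343 adjusted over 12). For single miRNAs, groups without overlap made up 15.9% of the 566 in plasma. The ratio in CS2 and CS3 rested on 20 and 6 counts of miR-199a-5p, both below background. Against mean negative controls of 17.25 in CS2 and 10.5 in CS3, these counts leave almost nothing or less than nothing after subtraction, so a background-corrected ratio could be had for CS4 alone in CS, at 4.49. In TS2, TS3 and TS4, where miR-199a-5p was above background, it was 9.10, 7.15 and 10.1. With 1 such CS sample, no test of the corrected plasma ratios was made.

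**Figure D4:**
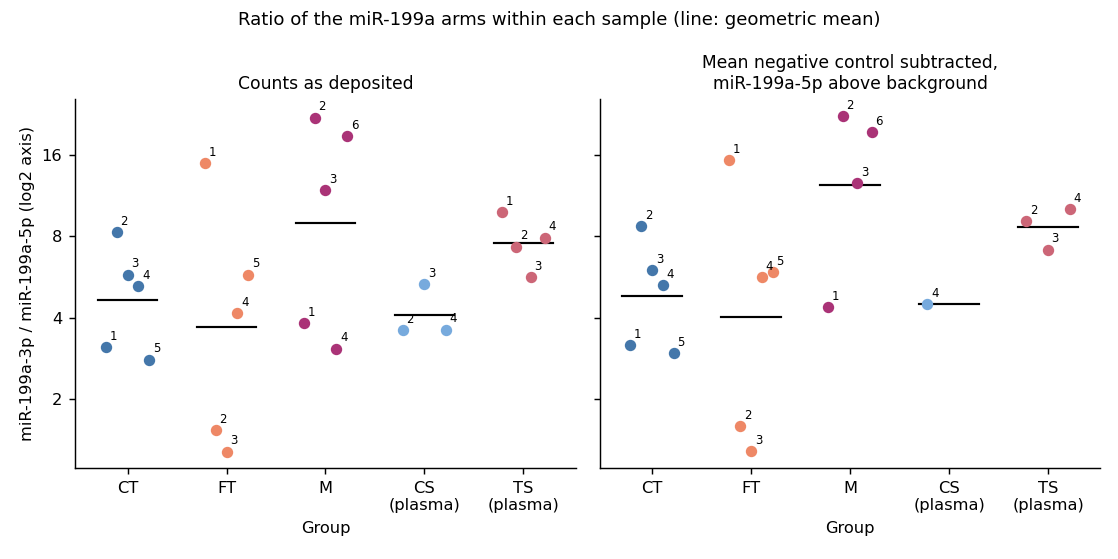
Counts of miR-199a-3p over those of miR-199a-5p in each sample (log2 axis), with a line at the geometric mean of the group, from counts as deposited (left) and with the mean negative control subtracted in the samples whose miR-199a-5p was above background (right). M2, M3 and M6 are above every CT in both panels, and of CS only CS4, at 4.49, is left on the right.

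Other miRNAs known from mesenchyme were set beside miR-199a. Of 10 (miR-143, miR-145, miR-152, miR-127, miR-379, miR-409-3p, miR-411, miR-10b, miR-100 and miR-125b-5p), 0 rose and 3 fell in M against CT (8.66% and 8.13% over all miRNAs), with a median log2 fold change of −0.56 beside 0.02 over all miRNAs. 5 of the 10 had a log2 fold change above 0, among them miR-127 (1.51, adjusted p = 0.0848) and miR-152 (0.65, adjusted p = 0.483). Apart from miR-152 these were at or near background. miR-127, miR-379, miR-409-3p and miR-411 were above it in 0 of 5 CT and in 2, 1, 0 and 1 of 5 M. miR-143, miR-145, miR-10b, miR-100 and miR-125b-5p, all below 0, were above background in all CT and M samples. The median thus mixes detected probes with probes at background. The 3 that fell were miR-143 (−2.82, adjusted p = 0.000365) and miR-145 (−2.34, adjusted p = 0.0161), which share a precursor transcript and are known from smooth muscle, and miR-125b-5p (−2.06, adjusted p = 0.0136). None of them changed sign in 24 alternative settings, and miR-143 was called in 23, miR-145 in 20 and miR-125b-5p in 19. In FT against CT, M against FT and TS against CS, 0 of 10 were called, beside 0.177%, 1.94% and 0.0% of all miRNAs. The sum of their normalized counts lay between 24037 and 34681 in CT and between 4826 and 9883 in M, with no overlap. Groups without overlap made up 15.2% of single miRNAs in this comparison. miR-125b-5p, with a mean of 15304 in CT and 3668 in M, was the largest part of the sum. The sum thus mainly follows the abundant miRNAs of the list and does not speak for all 10.

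The ratio of miR-199a-3p to miR-143, one of the miRNAs that fell, was high in M2, M3 and M6. For each count of miR-143 there were between 0.534 and 1.13 counts of miR-199a-3p in CT and between 0.238 and 2.13 in FT. In M1, M2, M3, M4 and M6 there were 1.99, 40.2, 10.2, 0.403 and 24.1. The ratio was above every CT in 4 of 5 M samples and below every CT in M4. This ratio was chosen after its values were seen and because miR-143 fell, so its test is a description. The mean log2 ratio was 2.82 higher in M than in CT (exact permutation p = 0.0873, 0.238 adjusted over 8 such tests) and 3.19 higher than in FT (p = 0.0714, 0.238 adjusted, exact permutation test). In mean log2 normalized counts, M differed from CT by −2.88 for miR-143, −2.45 for miR-145 and −0.06 for miR-199a-3p. By arithmetic, the difference of the mean ratios between M and CT is thus mostly that of mean miR-143 and mean miR-145. This does not hold for single samples. In M2, M3 and M6 miR-199a-3p was itself above every CT, and in M1 and M4 it was below every CT. With each sample left out in turn, the exact permutation p ranged from 0.0159 (without M4) to 0.175 against CT and from 0.0317 (without M4) to 0.143 against FT. Against miR-145 it was 2.39 (exact permutation p = 0.151), and M2, M3 and M6 were above every CT. miR-152, a mesenchymal miRNA that was not called, had 311, 1461, 671, 43.6 and 734 normalized counts in M1, M2, M3, M4 and M6 and between 348 and 543 in CT, so M2, M3 and M6 were above every CT and M1 and M4 below every CT for it as for miR-199a-3p.

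**Figure D5:**
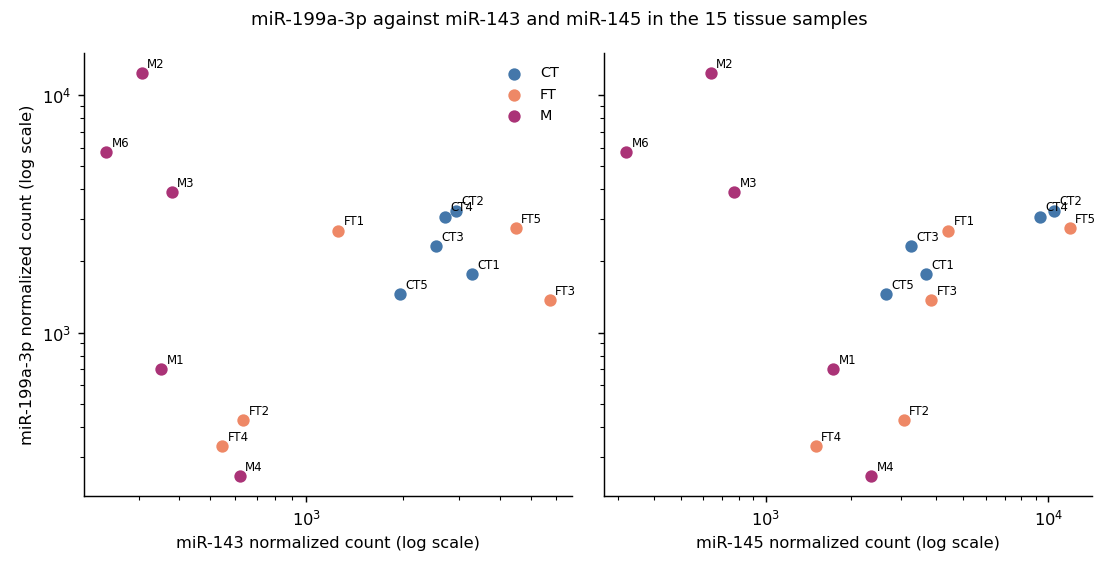
Normalized counts of miR-199a-3p (y axis) against those of miR-143 (left) and miR-145 (right) in the 15 tissue samples, on log scales. The 5 M samples lie at low miR-143, between 238 and 619, and spread from 249 to 12317 in miR-199a-3p.

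Of 4 miRNAs known from fibrosis, miR-21 rose in M against CT (log2 fold change 2.08, adjusted p = 0.0136), while miR-29a (−1.68, adjusted p = 0.0130), miR-29b (−3.46, adjusted p = 0.00216) and miR-29c (−4.07, adjusted p = 6.39e-05), which target collagen mRNAs, fell. Over all miRNAs, 8.66% rose and 8.13% fell in this comparison. The call of miR-29a was lost in 6 of 24 alternative settings and that of miR-21 in 3. In FT against CT, M against FT and TS against CS, 0 of 4 were called, beside the same 0.177%, 1.94% and 0.0% of all miRNAs.

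Markers of other cell types differed among the same samples, and their part in the miR-199a levels was not tested. The summed normalized counts of 5 epithelial miRNAs (the miR-200 family with miR-141 and miR-429) were between 9717 and 11624 in CT, and 415, 2112, 205, 36086 and 8769 in M1, M2, M3, M4 and M6. They were thus highest in M4, where miR-199a-3p was lowest, but low in M1, where it was low too. FT4, the tube with the lowest miR-199a-3p, had the highest sum of FT at 44388. Of the 5, miR-141 fell in M (−2.45, adjusted p = 0.0176). The others were not called and went both ways, with miR-200a at −1.62, miR-200c at −0.27, miR-200b at 0.38 and miR-429 at 0.14. Ciliated cell miRNAs (miR-34b, miR-34c and miR-449) fell in M against CT in 4 of 5 cases, beside 8.13% of all miRNAs. In M, 0 of the 5 were above background in any sample. The 5 leukocyte miRNAs summed to between 657 and 1218 in CT and to 2017, 2573, 5329, 830 and 1845 in M1, M2, M3, M4 and M6, and miR-223, of myeloid cells, rose (3.33, adjusted p = 0.00417). The 2 arms of endothelial miR-126 summed to between 7779 and 17091 in M and between 4453 and 7043 in CT, and miR-126-3p, which makes up most of the sum, rose (1.36, adjusted p = 0.0354). The other arm, miR-126-5p, was at −1.08 (adjusted p = 0.144), with means of 313 in CT and 148 in M. FT2, with the second lowest tubal miR-199a-3p, had the highest endothelial sum, 44933. The muscle miRNA miR-1 fell (−2.73, adjusted p = 0.0254), miR-486 of erythrocytes rose (2.93, adjusted p = 0.000329), and 1 of 3 liver miRNAs, miR-122, rose in M (2.42, adjusted p = 0.00353) and in FT against CT (4.59, adjusted p = 0.0439). Over all miRNAs, 8.66% rose in M against CT and 0.177% were called in FT against CT. Both miR-486 and miR-122 were above background in 0 of 5 CT, and miR-122 in only 2 of 5 M and 3 of 5 FT. The other erythrocyte miRNAs, miR-451 (1.95, adjusted p = 0.0766) and miR-144 (0.11, adjusted p = 0.892), were not called in M against CT. The calls of miR-126-3p and of miR-122 in FT were lost in 10 of 24 and 14 of 24 alternative settings, that of miR-122 without FT3 among them. The log2 ratio of the geometric mean of 4 housekeeping mRNAs on the panel to that of the top miRNAs of the sample lay between −0.49 and 1.25 in CT and between 1.82 and 4.57 in M, with M4 the highest.

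The arms of miR-199a varied together across the 15 tissue samples, with a Pearson r of 0.618 for log2 normalized counts and of 0.669 for deviations from the group means. miR-214, at background, had an r of 0.197 with miR-199a-3p and of 0.384 with miR-199a-5p. Among 139 miRNAs that averaged 50 counts or more in tissue, those most like the mean of the 3 miRNAs were miR-130a (r = 0.859), miR-322 (0.850), miR-301a (0.813), miR-152 (0.794) and miR-350 (0.787). Of these, miR-152 was also on the mesenchymal list. On deviations from group means they were miR-322 (0.925), miR-130a (0.869), miR-223 (0.866), miR-28 (0.821) and miR-195 (0.812), so miR-322 and miR-130a stood in both. At the other end on that measure, miR-100, also on the mesenchymal list, ranked 3 from the least alike (r = −0.744). These correlations describe 15 samples that share groups and a scaling. Apart from miR-223, none of the 8 most alike miRNAs was called in M against CT.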

How the data were processed

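The authors deposited barcode counts of the NanoString nCounter mouse miRNA assay (v1.5), which ligates a tag to each miRNA and counts a fluorescent barcode per probe without amplification, from 100 ng of tissue RNA or 10 ng of plasma RNA. The deposited counts carry no normalization by the authors, and whether control probes were used to correct them is not given in the sources used here. Of 626 probes, 566 are for mouse miRNAs and were tested, and 60 are controls or others. Groups came from the sample titles, and genotypes and shared mice from the study's sample list. The other alleles of the mice are not reported here.

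Each comparison used only its own groups in edgeR 4.0.16 (R 4.3.3, quasi-likelihood fit and test) with the geometric mean of each sample's 100 (tissue) or 30 (plasma) most abundant miRNAs as library size, Benjamini-Hochberg adjustment over 566 miRNAs and a threshold of 0.05. Scaling to these means relies on other miRNAs, and ratios within a sample avoid it. Levels of single miRNAs and ratios were compared by two-sided exact permutation tests (252 splits for 5 against 5, 35 for 4 against 3). Where no separate animals are named, p-values measure the spread between these samples. On simulated data with 200 of 566 miRNAs changed 8-fold, edgeR called 99.5% of them in FT against CT, 98.5% in M against CT and in M against FT, and 81% in TS against CS. Changes as small as those estimated for the 3 miRNAs were not simulated, so these shares do not show whether such changes could be called. The sample number was the block in 1 alternative only, although same-numbered samples did not vary together (correlations of deviations from −0.411 to 0.378).

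The members and lists were chosen with earlier results of these data known. Named are the 3 miRNAs, the list members, and the 5 most alike on each measure. The alternatives were TMM, DESeq2, miR-425, quantile and ligation control scaling, a set of most abundant miRNAs common to all samples, DESeq2 1.42.0, limma 3.58.1, the methods' t-test, subtraction of negative controls, minimum mean counts of 20 and 50, all tissue groups fitted together, the replicate block, pseudocounts of 1 and 10, and each sample left out. The ratios to miR-143 and miR-145, 10 counts added before ratios, and likeness to the arms alone were chosen after seeing the data. Python 3.11.15 with scipy 1.17.1 was used for the rest.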

Additional observations from a re-analysis of the deposited data

Results flagged for a closer look

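In the plasma of doxycycline-induced mice, the normalized count of miR-214 in TS3, 12.7, stood apart from the other 3 samples, which lay between 2.53 and 4.22. It was singled out because its gap to the nearest sample was 0.833 of the range of the group, and chance singles out about 1 in 20 groups. It was the only such sample of 24 groups of values tested, and it rests on 10 counts, below the background of 36.01 in that sample.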

How the results depend on the processing

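Of up to 24 alternatives in each tissue comparison, 0 brought miR-199a-3p, miR-199a-5p or miR-214 past the threshold, and of those in plasma only 2 did so, both for miR-214 at background, with adjusted p-values of 0.0306 and 0.0459 (range 0.0306 to 0.999). The 2 were the replicate block (log2 fold change −1.53) and the fit without CS4 (−2.10). The replicate numbers do not pair samples. With them as a block, calls came to 0 in FT against CT, 64 in M against CT, 1 in M against FT and 226 in TS against CS, and miR-199a-3p in M against CT turned to −0.47. Calls in FT against CT were 2 with TMM, DESeq2 size factors or DESeq2, 4 with negative controls subtracted, and 0 with miR-425, quantile or ligation control scaling, limma, the methods' t-test or minimum mean counts of 20 or 50. In M against CT they were 151 with TMM, 163 with DESeq2 size factors, 151 with DESeq2, 159 with negative controls subtracted, 62 with groups fitted together, 48 with ligation control scaling and 45 with the methods' t-test. In M against FT they were 2 with miR-425, 5 with quantile normalization or limma, 6 with ligation controls, 35 with DESeq2, 0 with the t-test, 7 at a mean count of 20 and 23 with groups fitted together. Signs turned for miR-199a-3p in FT against CT with ligation control scaling (0.43) and in M against CT with limma or the t-test (−0.0603). For miR-199a-5p they turned in FT against CT with miR-425 (0.22), in M against FT with ligation controls (0.25), and in TS against CS with TMM (0.55), DESeq2 size factors (0.65), miR-425 (0.41), quantile normalization (0.64), the common set (0.17), ligation controls (0.59) and negative controls subtracted (0.74). For miR-214 they turned in M against CT with miR-425 (0.0528) and ligation controls (0.17), and in the plasma and FT difference with TMM (0.17). Among ratios, with negative controls subtracted, miR-199a-3p over miR-214 turned to 0.75 in FT against CT and −0.0483 in M against FT, the arms to −0.22 in TS against CS, where miR-199a-5p in CS3 was set to the floor of 1 count, and miR-199a-3p over miR-143 to −0.56 in TS against CS, and with 10 counts added miR-199a-5p over miR-214 turned to −0.13 in FT against CT. By Spearman, 2 of the 5 most alike miRNAs were shared. With each sample left out in turn, calls ranged from 0 to 9 in FT against CT, 60 to 101 in M against CT, 4 to 25 in M against FT and 0 to 173 in TS against CS, the last without CS4. Values of miR-199a-3p ranged from −0.98 to −0.39 in FT against CT, 0.16 to 1.26 in M against CT, 0.81 to 1.93 in M against FT and 0.51 to 0.79 in TS against CS. Values of miR-199a-5p ranged from −0.96 to 0.0189 in FT against CT, −0.89 to 0.20 in M against FT, −0.54 to 0.0405 in TS against CS and −0.30 to 0.74 in the plasma and FT difference, and miR-214 in TS against CS from −2.22 to −0.91. By permutation, M against CT ranged from −1.31 to −0.61 for miR-199a-5p, −0.69 to 0.72 for miR-199a-3p and −0.67 to −0.35 for miR-214, FT against CT from −1.22 to −0.28 for miR-199a-5p and −1.23 to −0.55 for miR-214, and M against FT from −0.72 to 0.21 for miR-199a-5p and 0.10 to 0.78 for miR-214. Ratios in FT against CT ranged from −0.83 to 0.0564 for the arms, −0.85 to 0.36 for miR-199a-3p over miR-214 and −0.22 to 0.73 for miR-199a-5p over miR-214, and miR-199a-3p over miR-214 ranged from −0.19 to 1.09 in M against CT and −0.0656 to 1.24 in M against FT. miR-199a-3p over miR-143 ranged from 2.13 to 3.79 in M against CT and 2.50 to 4.16 in M against FT. The cause of these shifts was not tested. No value was had for miR-214 at a mean count of 50 in any comparison or of 20 in M against FT and TS against CS, nor for miR-199a-5p at 50 in TS against CS, since they were below these limits.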
